A study of Homo sapiens with 12 samples.

Results

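SH2B2, TRIB1, GPR157, LRFN1, PLD6, SLC19A3, MMP17, ZNF469 and TSC22D3 are among the genes that rose most with 4-hydroxytamoxifen (OHT) in SHEP neuroblastoma cells carrying a MYCN-ER fusion. These 9 genes were taken by symbol from the 28576 genes of the deposited table, and all 9 were found there. They had been picked for the size of their rise in these same libraries, so their change with OHT is given as a description, with no test. Their response to doxycycline (Dox), which took no part in the choice, was tested.

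Poly(A) RNA was sequenced in 12 libraries, in 4 groups of 3. OHT_Dox cells received 200 nM OHT and 1 µg/ml Dox, OHT cells received OHT alone, Dox cells received Dox alone, and Ctrl cells received neither. All 4 groups are SHEP cells with the same MYCN-ER construct and the same Dox-inducible short hairpin RNA against TCEAL1, an elongation factor A-like gene. An effect of OHT itself therefore cannot be told apart from that of the active fusion, nor can an effect of Dox itself be told apart from that of the hairpin, for which the labels name no alternative. The labels give no treatment times and do not say that replicates were separate cultures, so the spread behind each p-value is that of these libraries and may be technical. In bulk samples such as these, fewer cells of a type and less RNA per cell cannot be told apart.

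MYCN is a basic helix-loop-helix leucine zipper transcription factor that pairs with MAX and binds E-box DNA, and its gene is amplified in high-risk neuroblastoma. SHEP cells have no MYCN amplification and resemble mesenchymal cells, which makes them a common host for switchable MYCN. The hormone-binding domain of the estrogen receptor holds a fused transcription factor inactive until OHT binds it.

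Values are CPM (reads scaled to a total of 1000000 per library) as deposited, and changes are differences of log2(CPM + 0.5) ± standard error (SE) from limma, with p-values adjusted by the Benjamini-Hochberg method over 18674 genes and a call at an adjusted p below 0.05. The libraries held 44466458 to 57694970 reads. TCEAL1, the hairpin's target, stood at 1.73 to 2.58 CPM in OHT_Dox and 2.54 to 2.74 CPM in Dox, against 8.23 to 9.75 CPM in OHT and 9.11 to 10.7 CPM in Ctrl. MYCN, where the fusion transcript and the cell's own are counted together, stood at 376 to 470 CPM in OHT_Dox, 471 to 644 CPM in OHT, 513 to 564 CPM in Dox and 436 to 572 CPM in Ctrl. All 10 listed mesenchymal neuroblastoma markers passed the filter on low values, with a summed level of 4110 to 4406 CPM in OHT_Dox, 4246 to 4458 CPM in Dox, 4959 to 5350 CPM in OHT and 5263 to 5619 CPM in Ctrl. Of 12 adrenergic markers 5 passed it, with sums of 136 to 144 CPM in OHT_Dox, 109 to 111 CPM in Dox, 119 to 134 CPM in OHT and 104 to 112 CPM in Ctrl, while the adrenergic factor PHOX2A stayed below it. That sum was higher in all 6 libraries with OHT, and HAND2 and GATA2 of the list were called higher with OHT in both backgrounds. ISL1 was called lower with OHT in the presence of Dox (-0.27 ± 0.10, limma adjusted p = 0.0486), a call lost under other scalings. GATA3 and CHGB were not called in either background. Its part in the rises with OHT was not tested. Of 14 epithelial and haematopoietic markers 4 passed it, with sums of 22.5 to 28.8 CPM. The sum of mesenchymal markers was lower in all 6 libraries with Dox. The main effect of Dox called 0 of the 10 higher and 5 lower, beside 4.77% and 3.37% of all genes tested. The part of this lower sum in the Dox effects below was not tested.

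All 9 genes were above 0.5 CPM in every library and so passed the filter in every group. For all 9, which were picked for their rise, every OHT library exceeded every Ctrl library, and every OHT_Dox library every Dox library. Of all genes tested, 17.5% were separated in this way without Dox and 17.4% with Dox. Over all genes tested, OHT called 12.6% higher and 8.79% lower without Dox, and 11.5% higher and 14.5% lower with Dox, and nothing is read from these shares for genes picked by their rise. The split with Dox, 2153 higher and 2709 lower, turned with the scaling, to 2465 and 2329 after TMM rescaling, 2442 and 2303 by edgeR and 2624 and 2453 by DESeq2. Called genes that reached a mean of 5 CPM and whose groups did not overlap were ranked by their change in log2(CPM + 0.5). Clone, LOC, LINC and unnamed entries were left out. Of the 9 genes, 7 were in the top 10 without Dox, 7 in the top 10 with Dox, and 5 in both. The order depends on this scale: by the ratio of means with Dox, LRFN1 (3.75) stood just above PLD6 (3.74). NR1D1, SLC6A15 and BHLHE41 filled the other places of both rankings. Just inside the limit without Dox was TSC22D3 (1.91), and just outside were MMP17 (1.73) and SLC19A2 (1.62). Just inside with Dox was MMP17 (1.83), and just outside were LRFN1 (1.78) and SLC43A2 (1.66), with TSC22D3 at rank 39.

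**Figure D1:**
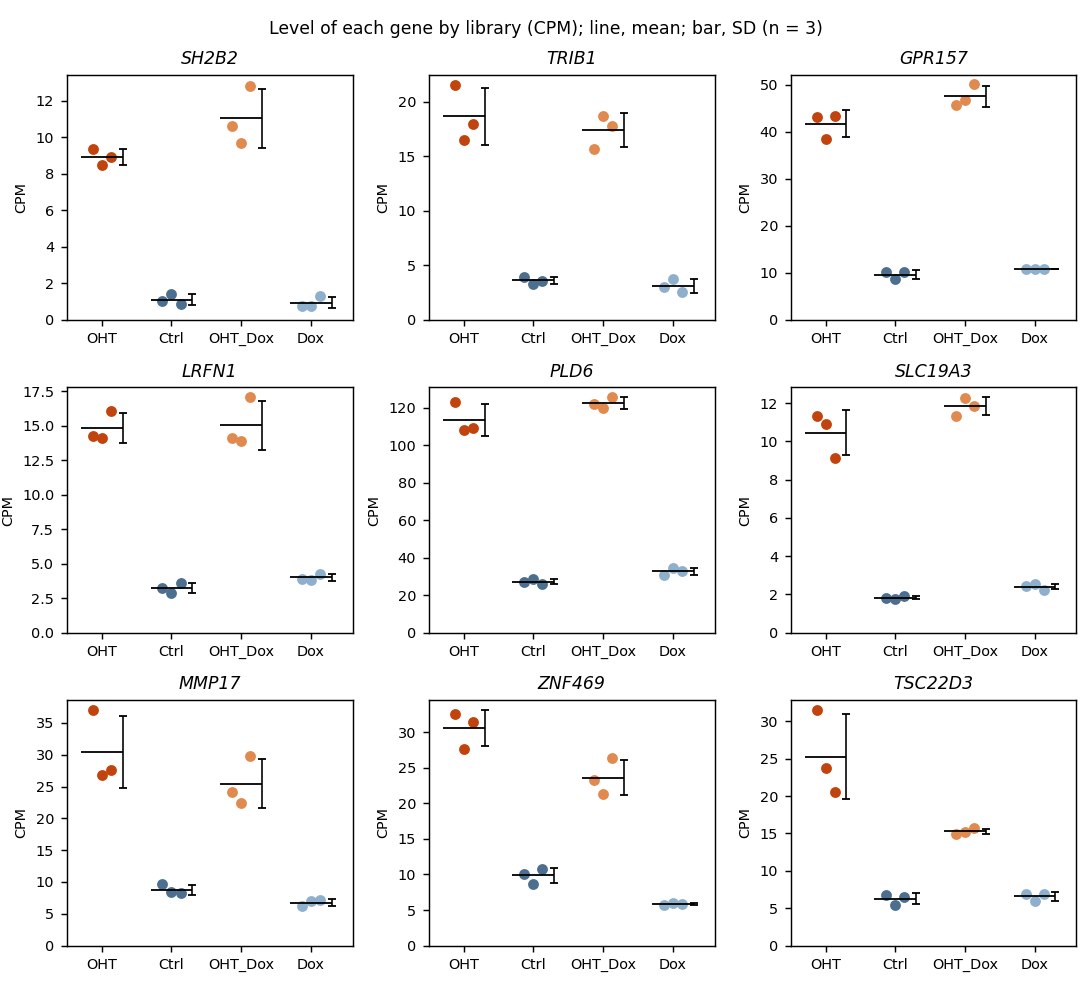
Level in CPM (vertical axes, starting at 0) of each gene in each of the 12 libraries, by group; points are libraries, lines are group means and bars are SD (n = 3). OHT and OHT_Dox libraries lie above Ctrl and Dox libraries in every panel, and TSC22D3 reached 14.9 to 15.7 CPM in OHT_Dox, below the 20.5 to 31.5 CPM of OHT.

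Of the genes of signalling, SH2B2 (ENSG00000160999, chromosome 7) encodes an adaptor with an SH2 domain that binds the insulin receptor and JAK2 and recruits the ubiquitin ligase CBL. It had 9.34, 8.48 and 8.92 CPM in OHT, against 1.06, 1.42 and 0.867 CPM in Ctrl. With Dox it had 10.6, 9.66 and 12.8 CPM in OHT_Dox, against 0.759, 0.761 and 1.32 CPM in Dox. Its 3 OHT_Dox libraries were all above its 3 OHT libraries, while its Dox and Ctrl libraries overlapped. The means differed 11.7-fold between OHT_Dox and Dox and 8.0-fold between OHT and Ctrl, the widest ratios of the 9 genes in both backgrounds. The libraries without OHT rest on 42 to 80 reads each, so the pseudocount draws its log2 change in: it was 3.01 ± 0.16 with Dox and 2.56 ± 0.16 without, against 3.58 and 3.0 by edgeR on whole reads. OHT_Dox replicate 3 held the highest SH2B2 value.

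RefSeq's promoter window of SH2B2 (GRCh38.p14, chr7:102289216-102289515, plus strand) is shown because it is among the 3 windows of these genes that held any motif searched. It holds CATGTG, a non-canonical E-box, in capitals, at position -151 from the start site.
SH2B2 promoter: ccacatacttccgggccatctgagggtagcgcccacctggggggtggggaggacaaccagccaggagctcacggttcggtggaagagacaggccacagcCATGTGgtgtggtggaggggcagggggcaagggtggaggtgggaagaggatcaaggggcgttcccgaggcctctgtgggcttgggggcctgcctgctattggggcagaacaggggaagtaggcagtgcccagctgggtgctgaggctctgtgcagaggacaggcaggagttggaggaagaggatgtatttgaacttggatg

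TRIB1 (ENSG00000173334) encodes a pseudokinase that brings the ubiquitin ligase COP1 to C/EBP proteins. It had 21.5, 16.5 and 17.9 CPM in OHT, against 3.93, 3.32 and 3.61 CPM in Ctrl. It had 15.7, 18.7 and 17.8 CPM in OHT_Dox, against 3.05, 3.77 and 2.52 CPM in Dox. OHT_Dox overlapped OHT, and Dox overlapped Ctrl. Its change was 2.32 ± 0.13 with Dox and 2.21 ± 0.13 without.

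GPR157 (ENSG00000180758, chromosome 1) encodes an orphan G protein-coupled receptor described in mouse in the differentiation of neural progenitors. It had 43.3, 38.4 and 43.4 CPM in OHT, against 10.2, 8.62 and 10.1 CPM in Ctrl. It had 45.7, 46.8 and 50.1 CPM in OHT_Dox, against 10.8, 10.7 and 10.8 CPM in Dox. Every library with Dox was above every library without Dox at the same OHT setting, by a small margin beside its rise with OHT of 2.09 ± 0.08 with Dox and 2.06 ± 0.08 without. Its promoter window (RefSeq, GRCh38.p14, chr1:9129053-9129352, minus strand) is shown for its 2 matches to CACGCG, a non-canonical E-box, in capitals. The match at position -147 from the start site reads as the reverse complement, and the other is at position 20.
GPR157 promoter: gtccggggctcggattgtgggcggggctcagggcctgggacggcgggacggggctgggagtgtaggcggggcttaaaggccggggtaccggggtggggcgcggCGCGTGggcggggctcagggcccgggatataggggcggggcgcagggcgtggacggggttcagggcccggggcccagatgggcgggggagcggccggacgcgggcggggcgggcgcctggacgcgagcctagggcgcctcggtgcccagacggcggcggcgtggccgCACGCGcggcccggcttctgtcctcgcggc

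Among the genes of the cell surface and matrix, LRFN1 (ENSG00000128011, chromosome 19) encodes a synaptic adhesion protein that binds the scaffold PSD-95. It had 14.3, 14.1 and 16.1 CPM in OHT, against 3.22, 2.85 and 3.59 CPM in Ctrl. It had 14.1, 13.9 and 17.1 CPM in OHT_Dox, against 3.92, 3.84 and 4.28 CPM in Dox. Here the groups with OHT overlapped each other, while all Dox libraries were above all Ctrl libraries, so the fold was 3.75 with Dox and 4.6 without. AC011445.1, a transcript that overlaps LRFN1 on the same strand, averaged 4.37 CPM in OHT, 1.11 CPM in Ctrl, 4.19 CPM in OHT_Dox and 1.12 CPM in Dox, and reads shared between both are uncertain.

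MMP17 (ENSG00000198598, chromosome 12) encodes a matrix metalloproteinase held at the cell surface by a lipid anchor. It had 37.0, 26.9 and 27.6 CPM in OHT, against 9.66, 8.37 and 8.25 CPM in Ctrl. It had 24.1, 22.4 and 29.8 CPM in OHT_Dox, against 6.18, 6.94 and 7.16 CPM in Dox. All Dox libraries were below all Ctrl libraries. OHT_Dox overlapped OHT through its replicate 3, and OHT replicate 1 stood above the other 2 of its group.

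ZNF469 (ENSG00000225614, chromosome 16) encodes a large zinc finger protein whose loss causes brittle cornea syndrome, a connective tissue disease. It had 32.6, 27.7 and 31.5 CPM in OHT, against 10.1, 8.67 and 10.8 CPM in Ctrl. It had 23.2, 21.4 and 26.3 CPM in OHT_Dox, against 5.76, 5.98 and 5.84 CPM in Dox. Its libraries with Dox lay below those without Dox in both OHT settings with no overlap. The rise in CPM was 17.8 ± 1.5 with Dox and 20.7 ± 1.6 without (SE of the difference of means), whereas the fold was 4.03 with Dox and 3.1 without, because the Dox baseline was lower.

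Of the genes of metabolism, PLD6 (ENSG00000179598, chromosome 17) encodes a phospholipase D family enzyme of the outer mitochondrial membrane, which acts in mitochondrial fusion and, in mouse germ cells, in making piRNAs. It had 123, 108 and 109 CPM in OHT, against 27.2, 28.4 and 26.0 CPM in Ctrl. It had 122, 119.8 and 126 CPM in OHT_Dox, against 30.8, 34.5 and 33.1 CPM in Dox. PLD6 was the most abundant of the 9, and all Dox libraries were above all Ctrl libraries, while OHT_Dox and OHT overlapped. MPRIP overlaps it on the opposite strand, at 1209 CPM in OHT, 1115 CPM in Ctrl, 1262 CPM in OHT_Dox and 1246 CPM in Dox. AC055811.2 overlaps it on the same strand, at 128 CPM in OHT, 106 CPM in Ctrl, 143 CPM in OHT_Dox and 117 CPM in Dox. The strand setting of the counting is not given in the sources used here, so the PLD6 count is uncertain to that extent. The means of AC055811.2 had the same order over the 4 groups as those of PLD6. Its ratios were smaller for OHT against Ctrl, OHT_Dox against Dox and Dox against Ctrl, but larger for OHT_Dox against OHT. The part of shared reads was not tested.

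SLC19A3 (ENSG00000135917, chromosome 2) encodes a thiamine transporter of the plasma membrane, whose loss in humans causes a thiamine-responsive brain disease. It had 11.4, 10.9 and 9.13 CPM in OHT, against 1.84, 1.74 and 1.94 CPM in Ctrl. It had 11.3, 12.3 and 11.9 CPM in OHT_Dox, against 2.42, 2.54 and 2.26 CPM in Dox. All Dox libraries were above all Ctrl libraries. OHT_Dox replicate 1 was just under the highest OHT library, so those groups overlapped.

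TSC22D3 (ENSG00000157514, chromosome X) encodes the glucocorticoid-induced leucine zipper protein GILZ, a brake on inflammatory signalling. It had 31.5, 23.8 and 20.5 CPM in OHT, against 6.80, 5.46 and 6.55 CPM in Ctrl. It had 14.9, 15.2 and 15.7 CPM in OHT_Dox, against 6.88, 5.94 and 6.96 CPM in Dox. All OHT_Dox libraries were below all OHT libraries, whereas Dox and Ctrl overlapped. Its rise was 8.67 ± 0.40 CPM with Dox and 19.0 ± 3.3 CPM without, so the rise with Dox was 45.6% of that without. For the other 8 genes this share was 85.8% (ZNF469) to 129% (SH2B2).

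RefSeq lists 4 start sites of TSC22D3. Window 3 (GRCh38.p14, chrX:107717013-107717312, minus strand) is shown because it held CATGTG at position -54 from the start site and TATAAA, the TATA box core, at position -29, both in capitals.
TSC22D3 promoter window 3: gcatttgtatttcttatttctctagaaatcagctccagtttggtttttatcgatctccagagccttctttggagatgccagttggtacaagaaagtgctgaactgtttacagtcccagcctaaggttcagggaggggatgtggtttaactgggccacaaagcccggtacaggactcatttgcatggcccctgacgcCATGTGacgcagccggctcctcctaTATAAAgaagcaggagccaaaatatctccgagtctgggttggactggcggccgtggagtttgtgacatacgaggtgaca

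Promoter windows of 250 bases before and 50 bases after the start were at hand for 5 of the 9 genes (SH2B2, GPR157, LRFN1, SLC19A3 and TSC22D3), 8 windows in all. TRIB1, MMP17, ZNF469 and PLD6 had no window in the table. Both strands were searched. CACGTG, the canonical E-box, was in 0 of the 8 windows and in 7.26% of 35116 RefSeq promoter windows. CACGCG was in 11.4% of them, CATGTG in 11.1%, TATAAA in 11.5% and the palindromic estrogen response element, which was in 0 of the 8, in 0.057%. The GC content of the windows of LRFN1 (85.0%) and GPR157 (80.3%) was above the median window (58.7%), that of SH2B2 was 63.0% and that of SLC19A3 57.0%. A match is a description of letters, not of binding, and its absence covers only these windows.

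Per length, in CPM per kb of exon, the order in OHT was PLD6 at 44.3 ± 3.3, GPR157 at 7.76 ± 0.53, MMP17 at 7.62 ± 1.4, TSC22D3 at 5.31 ± 1.2, TRIB1 at 4.5 ± 0.63, LRFN1 at 4.38 ± 0.32, SH2B2 at 3.74 ± 0.18, ZNF469 at 2.3 ± 0.19 and SLC19A3 at 1.35 ± 0.15 (SD, n = 3). The library ranges overlapped between GPR157 and MMP17, between TSC22D3 and TRIB1 and between TRIB1 and LRFN1. All other neighbours were apart: PLD6 lay above every GPR157 library, TSC22D3 below every MMP17 library, SH2B2 below every LRFN1 library, ZNF469 below every SH2B2 library and SLC19A3 below every ZNF469 library. In Ctrl the order was PLD6 at 10.6 ± 0.47, MMP17 at 2.19 ± 0.20, GPR157 at 1.79 ± 0.16, TSC22D3 at 1.32 ± 0.15, LRFN1 at 0.952 ± 0.11, TRIB1 at 0.874 ± 0.074, ZNF469 at 0.742 ± 0.081, SH2B2 at 0.467 ± 0.12 and SLC19A3 at 0.238 ± 0.013. There the ranges of LRFN1 and TRIB1, and of TRIB1 and ZNF469, overlapped and those of the other neighbours did not. On this per-length scale ZNF469 stood above SH2B2 in every Ctrl library and below it in every OHT library.

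The size of the rise was compared by the difference of the log2 changes, (OHT_Dox minus Dox) minus (OHT minus Ctrl). It is built from the changes that chose the genes, and a place in the top 10 of both backgrounds favours a small difference, so it is given as values and intervals with no test. Among the 5 genes in both rankings the difference was 0.45 for SH2B2 (95% interval -0.03 to 0.93), 0.11 for TRIB1 (-0.28 to 0.49), 0.03 for GPR157 (-0.21 to 0.27), -0.15 for PLD6 (-0.34 to 0.04) and -0.14 for SLC19A3 (-0.47 to 0.20). All 5 intervals include 0, which does not show equal rises. Across all genes tested limma called 0 higher and 0 lower, 0% each, with 2879 genes at an unadjusted p below 0.05, while edgeR called 0 and DESeq2 called 1, DAXX, named here for that call. Without Ctrl replicate 1 limma called 1039 genes.

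The other 4 genes reached the top 10 in 1 background only, which the choice favoured. TSC22D3 had the widest difference of the 9, at -0.76 ± 0.18 (95% interval -1.13 to -0.39), with changes of 1.16 ± 0.13 with Dox and 1.91 ± 0.13 without. When each of the 12 libraries was left out in turn it ranged from -0.89 to -0.59, and it was -0.59 without OHT replicate 1, the library at 31.5 CPM. MYCN was also lower in every OHT_Dox library than in every OHT library, and its part in the smaller rise was not tested. ZNF469 had a difference of 0.33 (0.04 to 0.63), LRFN1 of -0.27 (-0.60 to 0.07) and MMP17 of 0.10 (-0.26 to 0.46).

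**Figure D2:**
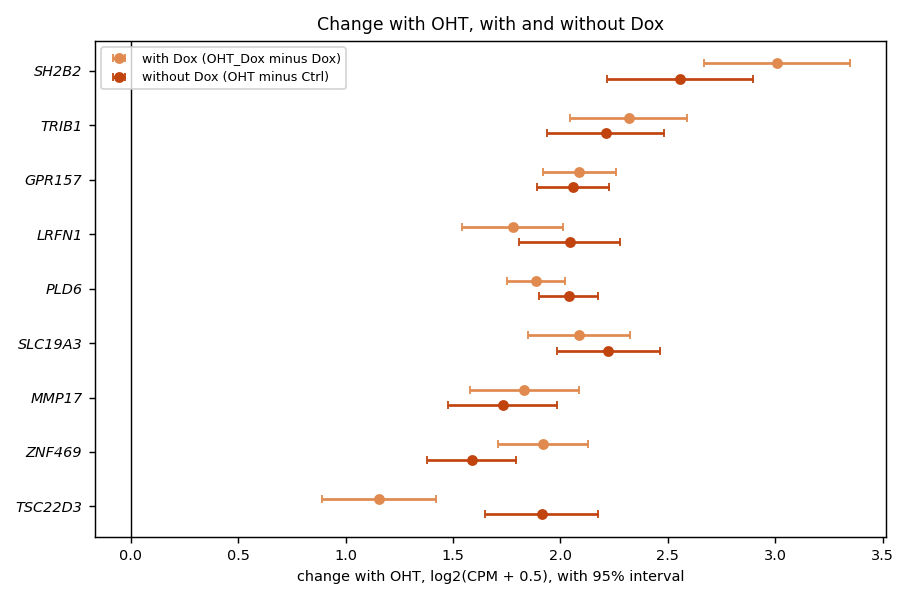
Change with OHT on the log2(CPM + 0.5) scale (horizontal axis) for each gene, with Dox and without Dox; points are limma estimates and bars 95% intervals. The intervals overlap for 8 genes, and for TSC22D3 the change with Dox (1.16) lies left of the change without (1.91).

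The main effect of Dox, the mean of the 6 libraries with Dox minus that of the 6 without, is independent of both contrasts that chose the genes. Of the 9 genes 1 was called higher and 3 lower, beside 4.77% and 3.37% of all genes tested. Over all genes that is 891 higher and 630 lower, a split that turned with the scaling, to 466 and 914 after TMM rescaling, 502 and 885 by edgeR and 801 and 1090 by DESeq2, while the 4 calls among the 9 genes kept their direction in each. ZNF469 fell, with a change of -0.53 ± 0.07 (limma adjusted p = 7.16e-05), and this call held without each of the 12 libraries in turn. PLD6 rose by 0.19 ± 0.05 (adjusted p = 0.0166), a rise of 0.17 that was not called without OHT replicate 2 (adjusted p = 0.0507) or Dox replicate 2 (0.0597). AC055811.2, which overlaps PLD6 on the same strand, also had higher means with Dox at each OHT setting, and the part of shared reads was not tested. MMP17 fell, with a change of -0.30 ± 0.09 (adjusted p = 0.0365), and TSC22D3 fell, with a change of -0.31 ± 0.09 (adjusted p = 0.0375).

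The calls of MMP17 and TSC22D3 depended on which libraries were kept. MMP17 was called in 4 of 12 refits with a library left out, with changes of -0.36 to -0.23, and was not called without OHT replicate 1, any Ctrl replicate, OHT_Dox replicates 1 or 2, or Dox replicates 1 or 2 (adjusted p = 0.0532 to 0.105). TSC22D3 was also called in 4 of 12, with changes of -0.38 to -0.23, and was not called without OHT replicates 1 or 2, Ctrl replicates 1 or 3, OHT_Dox replicates 1 or 2, or Dox replicates 2 or 3 (0.0515 to 0.109). For TSC22D3 this mean joins a change with Dox of -0.69 ± 0.13 in the presence of OHT with 0.07 ± 0.13 in its absence.

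The other 5 genes were not called for the main effect of Dox. GPR157 changed by 0.17 ± 0.06 (adjusted p = 0.0671). This effect passed the limma threshold when Ctrl replicate 1 was left out (0.19, 0.0376), with the length and GC trend removed (0.17, 0.0303) and with a replicate block (0.0413). SLC19A3 changed by 0.24 ± 0.08 (0.0674), LRFN1 by 0.15 ± 0.08 (0.258), TRIB1 by -0.15 ± 0.09 (0.345) and SH2B2 by 0.06 ± 0.11 (0.791). By separation of libraries, GPR157, LRFN1, PLD6 and SLC19A3 were higher in all Dox than in all Ctrl libraries, as were 19.1% of all genes, and MMP17 and ZNF469 were lower, as were 9.77%. SH2B2 and GPR157 were higher in all OHT_Dox than in all OHT libraries, as were 10.4% of all genes, and ZNF469 and TSC22D3 were lower, as were 8.33%. Dox and Ctrl, and OHT_Dox and OHT, are also the groups behind the choice, so these counts are given without a test.

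**Figure D3:**
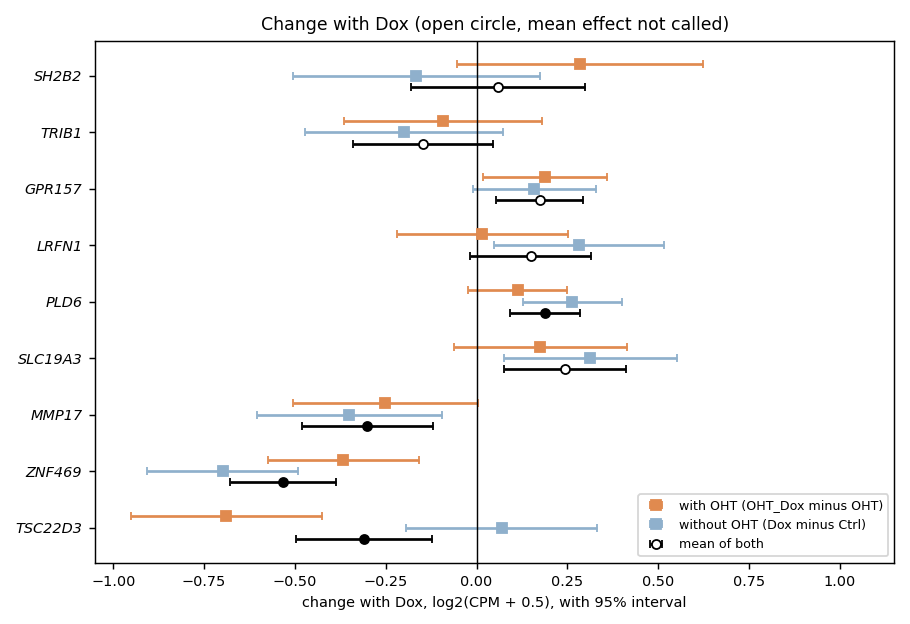
Change with Dox on the log2(CPM + 0.5) scale (horizontal axis) for each gene with OHT, without OHT and as the mean of both; bars are 95% intervals and open circles mark mean effects that were not called. ZNF469 lies at -0.53 and PLD6 at 0.19 for the mean effect, and TSC22D3 lies at -0.69 with OHT and 0.07 without.

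In both groups with OHT a single library held most of the highest values. OHT replicate 1 held the highest OHT value for 7 of the 9 genes, and OHT_Dox replicate 3 the highest OHT_Dox value for 7 of 9, whereas no Ctrl or Dox library was highest for more than 4. Across 18673 genes, deviations from the group mean in OHT_Dox replicate 3 went with the GC content of the transcript (Spearman 0.528), those in OHT_Dox replicate 2 against it (-0.501), and the other 10 libraries lay between -0.187 and 0.291, as a description over genes that share libraries. Replicate 3 was positive in the other groups too (0.117 in OHT, 0.287 in Ctrl and 0.291 in Dox), and replicates 1 and 2 were negative in every group. The transcripts of MMP17 (68.7%), SH2B2 (68.3%), LRFN1 (66.5%) and ZNF469 (66.2%) were GC-rich beside the median gene tested (48.2%), and all 4 had their highest OHT_Dox value in replicate 3. So did GPR157 (53.7%), PLD6 (53.1%) and TSC22D3 (52.8%), of lower GC content. With each library's trend over length and GC content removed, the difference between rises with and without Dox was 0.28 for SH2B2, -0.39 for LRFN1, -0.07 for MMP17, 0.35 for ZNF469 and -0.83 for TSC22D3, and the Dox effect on ZNF469 was -0.54.

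The 9 genes were compared with 136 relatives and partners, of which 114 passed the filter. OHT called 14 higher and 26 lower with Dox (12.3% and 22.8%), and 13 higher and 11 lower without (11.4% and 9.65%). The main effect of Dox called 9 higher and 18 lower (7.89% and 15.8%), and the difference of rises called 0, or 13 without Ctrl replicate 1. These shares stand beside those of all genes given above. In the lists below, a change with or without Dox is the change with OHT in that background, unless the main effect of Dox is named.

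In the thiamine list the paralogue of SLC19A3 rose strongly as well. SLC19A2, which encodes the other thiamine transporter of the plasma membrane, averaged 70.2 ± 4.8 CPM in OHT_Dox against 29.7 ± 0.37 CPM in Dox, and 74.9 ± 7.0 CPM in OHT against 23.95 ± 2.0 CPM in Ctrl (SD, n = 3). It rose by 1.22 ± 0.08 with Dox (limma adjusted p = 1.59e-09) and 1.62 ± 0.08 without (3.76e-11). Of the 14 list genes tested, 3 rose and 3 fell with Dox, and 2 rose and 1 fell without. The median list change was 0.05 with Dox and 0.02 without, against -0.03 and -0.01 over all genes. SLC19A1, the folate carrier of the family, rose by 0.25 ± 0.07 with Dox (adjusted p = 0.0188), a call lost without OHT_Dox replicate 3 (0.16), without Dox replicate 1 or with the GC trend removed (0.12). Its change without Dox was 0.11 ± 0.07, and the difference was not called.

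Of the 9 Tribbles-list genes tested, 2 rose and 0 fell in each background, and both were the paralogues of TRIB1. TRIB3 rose by 0.39 ± 0.08 with Dox (limma adjusted p = 0.0017) and by 0.39 ± 0.08 without (0.00176). TRIB2, at 3.5 to 5.3 CPM in group means, rose by 0.48 ± 0.13 with Dox (0.00984) and 0.40 ± 0.13 without (0.0356). The TRIB2 call without Dox was lost without OHT replicates 1 (0.29) or 3 or Ctrl replicates 2 or 3, and that with Dox without Dox replicate 2 (0.41). COP1, CEBPA and CEBPB were not called.

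Of the 12 SH2B2 partners tested, 0 rose and 4 fell with Dox, and 1 rose and 1 fell without. SH2B3, a paralogue that restrains cytokine receptor signalling, fell, with a change of -0.51 ± 0.07 with Dox (limma adjusted p = 4.28e-05) and -0.27 ± 0.07 without (0.0121). Its fall without Dox was not called without OHT replicates 2 (-0.21) or 3. SH2B1, the other paralogue, was not called (0.00 ± 0.09 with Dox and -0.12 ± 0.09 without). The main effect of Dox called 1 of the 12 higher and 4 lower. Among those lower were IGF1R (-0.41 ± 0.07, adjusted p = 0.00173), IRS1 (-0.32 ± 0.06, 0.00131) and SOCS1 (-0.65 ± 0.10, 5.16e-04), and IRS2 was the other. The gene called higher was SOCS3 (0.23 ± 0.06, 0.0352), whose call was lost in 8 of 12 refits with a library left out.

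Of the 17 genes of the PLD and mitochondrial list, 2 rose and 2 fell with OHT in the presence of Dox, and 2 rose and 0 fell without. LPIN2, a phosphatidate phosphatase, rose by 0.52 ± 0.07 with Dox (limma adjusted p = 2.51e-05) and 0.66 ± 0.07 without (1.49e-06). PIWIL4, a piRNA-binding protein gene, rose by 0.66 ± 0.12 with Dox (3.45e-04) and 0.59 ± 0.12 without (0.00118). PLD1 fell with OHT in the presence of Dox (-0.41 ± 0.10, 0.00568) and was at -0.07 ± 0.10 without Dox, and PLD2, PLD3 and PLD5 were not called. Of the 7 tested genes of the AMPK energy sensor list, 0 rose and 4 fell with Dox, and 0 rose and 1 fell without. PRKAA1, which encodes a catalytic subunit, changed by -0.31 ± 0.06 with Dox (8.41e-04) and -0.04 ± 0.06 without. PRKAA2, which encodes the alternative catalytic subunit, was not called (-0.20 ± 0.15 with Dox and -0.02 ± 0.15 without). LPIN2 also rose with Dox in the main effect (0.35 ± 0.05, 2.31e-04), as PLD6 did.

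**Figure D4:**
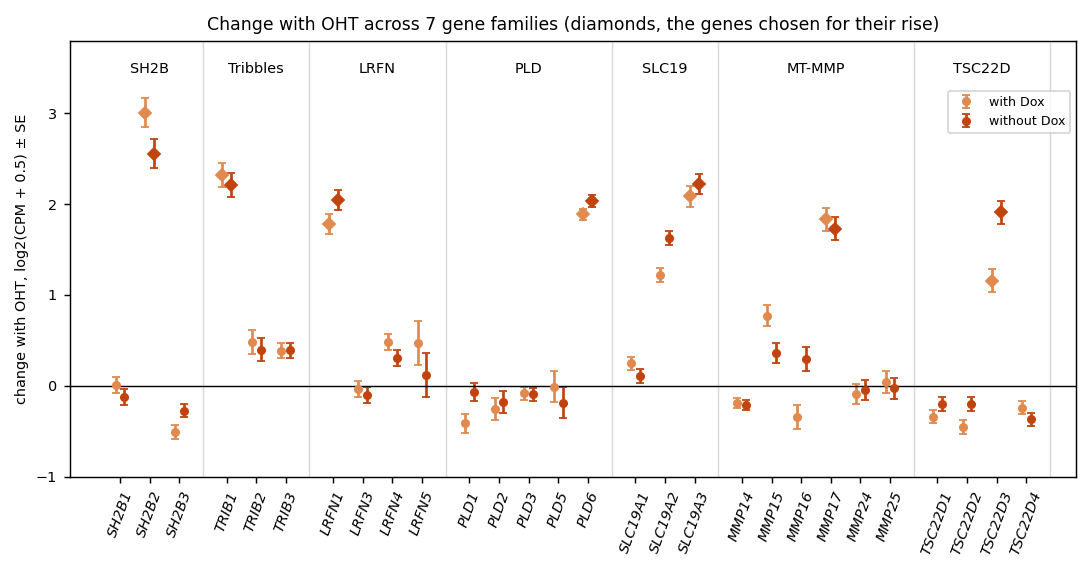
Change with OHT on the log2(CPM + 0.5) scale (vertical axis, ± SE) of the tested members of 7 gene families, with and without Dox; diamonds are 7 of the genes chosen for their rise. Among the other family members SLC19A2 had the largest change, 1.22 with Dox and 1.62 without.

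In the synaptic adhesion list 1 of 9 genes tested rose in each background, and it was LRFN4, a paralogue of LRFN1. LRFN4 rose by 0.49 ± 0.09 with Dox (limma adjusted p = 4.45e-04) and 0.30 ± 0.09 without (0.0203), where it was not called without OHT replicate 1 (0.27) or Ctrl replicates 1 or 2. With Dox 1 gene was called lower (DLG1), a call lost in 3 of 12 refits with a library left out (-0.36 to -0.18) and with the GC trend removed (-0.17). Without Dox 2 were called lower, DLG3, lost in 2 refits (without OHT replicate 2 and without Ctrl replicate 1), and PTPRD, lost in 1 (without OHT replicate 3). Of the 10 genes of the metalloproteinase list, 1 rose and 2 fell in each background. MMP15, another membrane-type enzyme, rose by 0.77 ± 0.11 with Dox (5.0e-05) and 0.36 ± 0.11 without (0.0292), where it was not called without OHT replicates 1 or 3, Ctrl replicates 1 or 2, or with the GC trend removed (0.32). MMP14, the best studied membrane-type enzyme, fell, with a change of -0.19 ± 0.06 with Dox (0.0185) and -0.21 ± 0.06 without (0.00985). The call with Dox was lost without OHT_Dox replicate 1 or Dox replicates 1 or 3, after TMM rescaling (-0.16) and by edgeR (-0.16).

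ZNF469 was listed with fibrillar collagen and cornea genes, of which 8 were tested. The main effect of Dox called 0 of them higher and 4 lower, with a list median of -0.16 against 0.03 over all genes. COL1A1 averaged 498.7 ± 44 CPM in OHT_Dox, 563 ± 33 CPM in Dox, 823 ± 69 CPM in OHT and 924 ± 55 CPM in Ctrl, a fall with Dox of -0.72 ± 0.05 (limma adjusted p = 1.26e-08). COL5A1 fell, with a change of -0.67 ± 0.05 (4.16e-08). COL5A2 (-0.17 ± 0.04, 0.0147) and COL3A1 (-0.16 ± 0.04, 0.032) were also lower, and COL3A1 was not called without 5 of the libraries in turn (OHT replicate 3, OHT_Dox replicates 1 and 2, and Dox replicates 1 and 2). COL1A1 is also in the list of mesenchymal markers whose sum was lower with Dox. With OHT, 0 of the 8 rose in either background, while ZNF469 itself had changes of 1.92 with Dox and 1.59 without.

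No relative of TSC22D3 by family rose with OHT. Of the 6 genes of its family list, 0 rose and 3 fell with OHT in the presence of Dox, and 0 rose and 1 fell without. TSC22D4 fell, with a change of -0.24 ± 0.08 with Dox (limma adjusted p = 0.024) and -0.37 ± 0.08 without (0.00135), and the call with Dox was lost without OHT_Dox replicates 1 or 2 or Dox replicates 2 or 3. TSC22D2 fell with OHT in the presence of Dox (-0.45 ± 0.08, 1.88e-04), as did TSC22D1 (-0.34 ± 0.07, 0.00196), and without Dox both were at -0.20. The main effect of Dox called TSC22D2 higher (0.22 ± 0.05, 0.0149) and TSC22D1 lower (-0.22 ± 0.05, 0.0141), the latter call lost without OHT_Dox replicate 1. Among genes known to respond to glucocorticoids calls went both ways: of 12 tested, 3 rose and 3 fell with Dox, and 3 rose and 3 fell without. FKBP5, a chaperone of the glucocorticoid receptor, rose by 0.45 ± 0.06 with Dox (6.84e-06) and 0.61 ± 0.06 without (1.47e-07). GLUL, glutamine synthetase, rose by 0.55 ± 0.06 with Dox (1.87e-06) and 0.67 ± 0.06 without (1.45e-07). SGK1, a kinase gene, fell, with a change of -0.76 ± 0.07 with Dox (2.28e-07) and -0.44 ± 0.07 without (1.29e-04).

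Estrogen receptor targets, together with the receptor genes ESR1 and ESR2, were listed because OHT is itself a ligand of that receptor. Of 10 tested, 2 rose and 2 fell with Dox, and 1 rose and 0 fell without. ESR1 itself was 1 of the 2 that fell with Dox (-0.29 ± 0.10, limma adjusted p = 0.0363), a call kept in 7 of 12 refits. It averaged 75.4 CPM in OHT_Dox, 92.1 CPM in Dox, 89.2 CPM in OHT and 93.1 CPM in Ctrl. Whether reads of the fusion count toward ESR1 was not tested. CA12, a carbonic anhydrase gene, rose by 1.27 ± 0.08 with Dox (limma adjusted p = 3.53e-09) and 1.26 ± 0.08 without (2.96e-09). CCND1 rose with Dox (0.25 ± 0.06, 0.0055). GREB1 went the other way with Dox (-0.50 ± 0.13, 0.00645), a call kept in 12 of 12 refits, and was at -0.22 ± 0.13 without. XBP1 was at 0.04 ± 0.06 with Dox and 0.06 ± 0.06 without.

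Profiles over the 12 libraries, each relative to its own Ctrl mean, were compared by their root-mean-square log2 distance, as a description of genes picked for the same rise. GPR157 and PLD6 were the nearest pair (0.119), followed by GPR157 and LRFN1 (0.131). SH2B2 and ZNF469 were the furthest pair (1.004). Among all genes tested, BHLHE41, a circadian repressor gene, was nearest to PLD6 (0.112), NR1D1, a circadian nuclear receptor gene, to SH2B2 (0.319), IL17D to MMP17 (0.230), ST3GAL1 to ZNF469 (0.241) and FAM124A to TSC22D3 (0.218). FAM124A averaged only 0.154 CPM in Ctrl and 0.224 CPM in Dox, below the pseudocount, against 1.53 CPM in OHT and 1.23 CPM in OHT_Dox. The pseudocount therefore draws the log2 changes of FAM124A in, and its nearness to TSC22D3 on another scale was not tested. GPR157 was nearest to TRIB1 (0.243), LRFN1 and SLC19A3 (0.171).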

How the data were processed

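Poly(A) RNA of SHEP cells was measured in 12 libraries of 4 groups, assigned from the labels. The authors deposited CPM per gene, reads scaled to 1000000 per library, and all values were whole multiples of 1 read within 0.01 reads, so whole reads were recovered, 44466458 to 57694970 per library. edgeR on them called 1387 genes for Dox, against 1521 by limma. The submitters' processing notes name DRAGEN, STAR, Bowtie, Bowtie2, FastQC, featureCounts, hg19 and mm10 with no role. Annotation and strand setting are not given in the sources used here.

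Genes with at least 0.5 CPM in at least 3 libraries (18674) were fitted as log2(CPM + 0.5) in limma 3.58.1 (R 4.3.3) with 1 mean per group and a mean trend, with two-sided tests and Benjamini-Hochberg adjustment over all genes. The fits were checked on simulated data. Alternatives were other pseudocounts, no filter, TMM, edgeR 4.0.16 and DESeq2 1.42.0 on whole reads, each library left out, a replicate block, and removal of length and GC trends, chosen after seeing the data. GENCODE 29 matched 28572 identifiers and gave lengths and overlaps, and RefSeq GRCh38.p14 gave promoters.

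The members and lists were chosen with earlier results of these data known. Named were the 9 genes, TCEAL1 and MYCN, genes ranked beside them, their nearest profiles, and list genes close in family or with the smallest p, besides the non-called partners and paralogues chosen for contrast after their values were seen.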

Additional observations from a re-analysis of the deposited data

How the results depend on the processing

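With no filter on low values 2 of the 9 genes were called for the main effect of Dox instead of 4. That fit tests more genes and also changes the standard errors, and the part of each was not tested. Leaving out each library gave 1 to 4. Over all genes this effect called 1521, and 783 (without Dox replicate 2) to 2370 (without Ctrl replicate 1) with a library left out. The difference of rises called 0 genes, 1 by DESeq2 and 0 to 1039 with a library left out. Among the relatives, leaving out a library gave 15 to 30 calls for Dox, against 27, and 0 to 13 for the difference. With a library left out, the difference spanned -0.0152 to 0.234 for TRIB1 (negative without Dox replicate 3) and -0.0276 to 0.104 for GPR157 (-0.0276 without OHT replicate 2, -0.01 without Ctrl replicate 1, -0.0047 without Ctrl replicate 3 and -0.0082 without OHT_Dox replicate 3). The Dox effect on SH2B2 turned by edgeR (-0.0049), by DESeq2 (-0.0016) and without Dox replicate 3, in a range of -0.029 to 0.125. None of these Dox effects was called, and the cause was not tested. With a replicate block GPR157 was also called for Dox (adjusted p = 0.0413), making 5 of the 9 genes and 2099 of all. The labels give replicates a number only. Deviations from the group mean correlated above 0.1 in 7 of 18 same-numbered pairs of libraries, in a range of -0.174 to 0.33. A shared replicate effect was not tested, and the main fit took no account of one. SH2B2 rests on 42 to 80 reads in libraries without OHT.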
